A study of Mus musculus with 39 samples.

Results

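The DP-only H3K4me1 regions were 234 stretches of the mouse genome that carried an H3K4me1 peak in each of 3 libraries of double-positive (DP) cells and in none of 6 libraries of the flanking populations. They were selected on measured values, by merging the peaks of all 9 H3K4me1 libraries wherever they overlapped by 1 bp or more and keeping the merged regions with that pattern. The rule kept 234 of 26496 merged regions (0.883%). A further 3034 regions also had a peak in all 3 DP libraries but shared it with at least 1 Oct4+ or Pdgfra+ library, and these other DP regions are the comparison used below. A second comparison is with 1005 Oct4-only regions, which had a peak in 3 of 3 Oct4+ libraries and in no DP or Pdgfra+ library.

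The cells were naive extra-embryonic endoderm (nEnd), an in vitro culture of primitive endoderm derived from mouse embryonic stem cells. A single OCT4-mCherry reporter line was used, without treatment, so the libraries describe 1 genotype. The study calls its replicates biological without saying whether each was a separate culture or sort, and p-values measure the spread between these libraries. Cells were grown on mouse embryonic fibroblast feeders in RACL medium and sorted by flow cytometry on OCT4-mCherry and PDGFRA-APC into Oct4+ cells, DP cells that carry both markers, and Pdgfra+ cells. Each population was profiled in 3 replicates by CUT&Tag, a method that cuts and tags DNA where an antibody has bound a histone mark, for H3K4me1, H3K27ac, H3K27me3 and H3K9me3, giving 36 peak lists. In such bulk libraries, a mark in fewer cells and a weaker mark in every cell cannot be told apart.

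H3K27ac at the promoters of marker genes was used to check the sort. Only the outermost annotated start of each gene was scored, so a peak at another start of the same gene was not counted. Of 25 pluripotency genes, 19 had an H3K27ac peak at the promoter in at least 2 of 3 Oct4+ libraries, against 7 in DP and 5 in Pdgfra+. Of 25 extra-embryonic endoderm genes, 5 did so in Oct4+, 15 in DP and 10 in Pdgfra+. Over all 21924 coding genes the counts were 6980, 6642 and 4026, so fewer promoters were called in Pdgfra+ at large. The trophectoderm list had 8, 9 and 7 of 25 in Oct4+, DP and Pdgfra+, and the mesendoderm list 0, 3 and 2 of 24. Among the defining genes, the promoter of Pou5f1, which encodes OCT4, had a peak in 3 Oct4+ libraries, 1 DP and 1 Pdgfra+ library, and that of Zfp42 in 2, 1 and 0, so that these promoters did not set DP clearly apart from Pdgfra+. Those of Nanog and Sox2 had one in 3 Oct4+ libraries and in 0 of DP and Pdgfra+, and those of Gata4 and Pdgfra had one in 0 Oct4+ libraries and in at least 2 libraries of each of the others. Gata6 had one in 2 Oct4+ libraries as well as in all 6 others, Klf4 in all 9 and Esrrb in 0. Of other endoderm genes, Sox7 and Lama1 had one in 1 Oct4+ library and in all 6 others. Sox17 had one in 2 DP libraries alone, and Dab2 had one in 0 libraries of any population. The feeder fibroblast list had 3 of 25 promoters with such a peak in Oct4+ and 0 in DP and Pdgfra+, and Col1a1, Col1a2 and Thy1 were at 0 in all 9 libraries.

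H3K4me1 marks enhancers, whether active or waiting. An enhancer that also carries H3K27ac is usually engaged, one with H3K4me1 alone is called primed, and one with H3K27me3 is under Polycomb control, while H3K9me3 marks silenced chromatin, often at repeats. In primitive endoderm, OCT4 can pair with SOX17 in place of SOX2, and the SOX17 pairing reads a compressed composite site in which the SOX site and the octamer touch, whereas OCT4 and SOX2 read a site with a single base between them. GATA factors are the other leading regulators of this lineage.

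The compressed site was several times more frequent in windows at DP-only regions than in windows at the comparison regions. It was counted in the 400 bp around the strongest interval of each region as the SOX site CATTGT followed at once by the octamer ATGCAAAT, on either strand, with up to 2 mismatches, and it was present in 9 of 234 DP-only regions. The 9 matches are shown because they carry this difference, and they were chosen after the counts were seen. Each line gives 60 bases of the mm10 genome (RefSeq GRCm38.p6), read 5′ to 3′ on the strand that holds the match, with the match in capitals.

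R63, chr5:149061974-149062033, minus strand: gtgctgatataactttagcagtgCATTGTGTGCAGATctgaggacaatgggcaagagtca
R67, chr14:47548509-47548568, minus strand: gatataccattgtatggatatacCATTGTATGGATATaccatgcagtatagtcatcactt
R69, chr8:75157792-75157851, minus strand: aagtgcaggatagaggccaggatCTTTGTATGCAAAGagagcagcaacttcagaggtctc
R103, chr9:40675085-40675144, plus strand: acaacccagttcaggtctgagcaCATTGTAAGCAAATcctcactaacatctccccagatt
R107, chr8:89079350-89079409, minus strand: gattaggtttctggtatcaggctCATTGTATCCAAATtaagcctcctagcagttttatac
R127, chr1:165854635-165854694, plus strand: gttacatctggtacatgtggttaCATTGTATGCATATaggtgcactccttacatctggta
R137, chr6:92669578-92669637, plus strand: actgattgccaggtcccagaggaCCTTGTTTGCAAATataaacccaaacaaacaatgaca
R162, chr7:65233903-65233962, minus strand: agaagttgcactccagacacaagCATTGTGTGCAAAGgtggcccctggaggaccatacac
R197, chr9:7852459-7852518, minus strand: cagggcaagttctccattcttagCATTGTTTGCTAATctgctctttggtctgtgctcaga

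Of these 9 matches, 3 had 1 mismatch (those of R103, R107 and R127) and 6 had 2. Region names run from R1, the strongest, to R234, by the lowest rank of a region's total signal in any of the 3 DP lists. The matches lay between -112 and 67 bp from the centre of the strongest interval, none was in soft-masked repeat sequence, and none overlapped an annotated UTR. The match in R67 lies in a stretch where the same letters recur nearby. By annotation, R63, R67, R127, R137 and R197 were in introns of Hmgb1, Atg14, Cd247, Prickle2 and Birc3, and R69, R103, R107 and R162 were intergenic. The nearest coding start site to R107, at 35.2 kb, was that of Sall1, a zinc finger factor expressed in pluripotent cells.

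The compressed site was found in 3.85% of DP-only windows, 0.791% of other DP windows (24 of 3034), 0.498% of Oct4-only windows (5 of 1005) and 0.46% of all merged regions (122 of 26496). In windows of the same size moved 2 kb to either side of the same 234 intervals it was found in 1 and 0 regions. The strongest interval was that of the peak ranked highest within its own list, over all H3K4me1 libraries. In DP-only regions that peak was always from DP, while in other DP regions it could be from Oct4+ or Pdgfra+. The windows of these sets were thus not placed alike, and the effect on the motif shares was not tested. The spaced OCT4-SOX2 site, with 1 free base between the SOX site and the octamer and the same allowance for mismatches, was found in 0 of 234 DP-only windows, 0.461% of other DP windows, 2.09% of Oct4-only windows and 0.868% of all windows. A count of 0 of 234 allows a share of up to 1.28%, which covers the shares of other DP and of all windows, so no difference from those was detectable. The octamer is part of both composite sites and matches to different motifs may overlap, so these are counts of letters and not of bound sites, and they were not tested over regions. Among the 9 members with a compressed site, 0 had H3K27ac in 2 or more DP libraries, against 8.55% of all 234, and 3 (R67, R127 and R137) had no peak of any other mark in 27 libraries, against 31.2% of all 234, so neither count sets them apart. R69 had H3K27ac in 2 Oct4+ libraries.

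GATA letters (AGATAAG) were about as frequent in DP-only as in other DP regions. They were found in 18.8% of DP-only windows (44 of 234) and 18.1% of other DP windows, against 3.48% of Oct4-only windows and 9.8% of all regions. In the DP-only regions the share was 6.84% and 3.42% in the windows 2 kb to either side. The octamer alone (ATGCAAAT) was in 1.28% of DP-only, 2.41% of other DP and 4.58% of Oct4-only windows, so the exact octamer had its highest share of the 3 sets in the Oct4-only regions. The STAT letters (TTCCNGGAA), read by the effectors of LIF signalling, were in 2.56%, 2.21% and 2.39%. ESRRB letters (AAGGTCA) were in 15% of DP-only windows, 11.7% of other DP and 16.2% of Oct4-only windows. The AP-1 letters (TGANTCA) were in 9.4% of DP-only windows and in 14.3%, 13.2% and 13.4% of the other DP, Oct4-only and all windows. FOXA (TGTTTAC), TFAP2 (GCCNNNGGC) and TEAD (GGAATG) letters were in 4.27%, 16.7% and 25.2% of DP-only windows and in 6.95%, 14.9% and 26.5% of other DP windows. One member, R107, held both a GATA match and a compressed site.

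**Figure D1:**
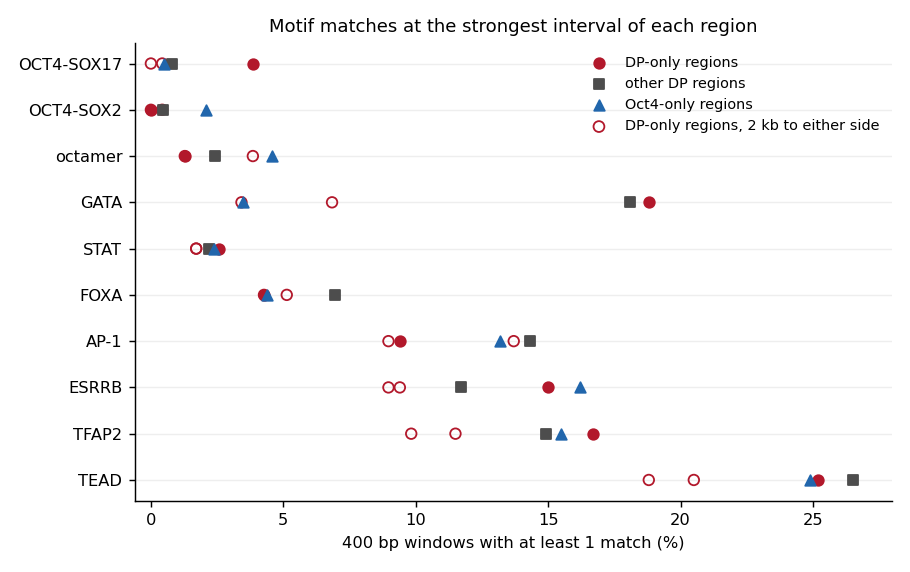
Share of 400 bp windows with at least 1 motif match (x axis, percent) for 10 motifs (y axis) in DP-only regions (filled circles), other DP regions (squares) and Oct4-only regions (triangles), with the DP-only windows moved 2 kb to either side as open circles. The compressed OCT4-SOX17 site is at 3.85% in DP-only regions and at 0.791% and 0.498% in the others, while GATA is at 18.8% and 18.1% in the DP sets and at 3.48% in Oct4-only regions.

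The 8 windows below show what the strongest members look like, 200 bases around the strongest interval on the plus strand of the same genome, with every match to the 10 motifs in capitals. The first 4 are the highest-ranked members with H3K27ac in at least 2 DP or Pdgfra+ libraries.

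R2, chr2:131842673-131842872, plus strand: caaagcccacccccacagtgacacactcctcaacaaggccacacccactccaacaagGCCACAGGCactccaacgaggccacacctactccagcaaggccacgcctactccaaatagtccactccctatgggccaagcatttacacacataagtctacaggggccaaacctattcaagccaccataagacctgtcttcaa
R8, chr16:10674172-10674371, plus strand: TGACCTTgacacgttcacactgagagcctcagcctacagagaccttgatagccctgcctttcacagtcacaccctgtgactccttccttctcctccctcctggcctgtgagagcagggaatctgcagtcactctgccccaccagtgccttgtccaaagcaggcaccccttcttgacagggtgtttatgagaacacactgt
R18, chr7:107680404-107680603, plus strand: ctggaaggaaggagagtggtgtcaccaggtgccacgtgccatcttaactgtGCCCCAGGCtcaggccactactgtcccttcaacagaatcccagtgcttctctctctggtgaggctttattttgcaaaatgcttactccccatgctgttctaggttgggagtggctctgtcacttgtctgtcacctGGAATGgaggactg
R31, chr15:75699831-75700030, plus strand: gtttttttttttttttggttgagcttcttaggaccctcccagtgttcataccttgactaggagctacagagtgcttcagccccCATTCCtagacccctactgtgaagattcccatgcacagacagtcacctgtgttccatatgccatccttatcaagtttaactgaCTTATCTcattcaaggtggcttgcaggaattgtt

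The next 4 are the highest-ranked members with no other mark in 2 or more libraries of any population.

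R1, chr15:62223021-62223220, plus strand: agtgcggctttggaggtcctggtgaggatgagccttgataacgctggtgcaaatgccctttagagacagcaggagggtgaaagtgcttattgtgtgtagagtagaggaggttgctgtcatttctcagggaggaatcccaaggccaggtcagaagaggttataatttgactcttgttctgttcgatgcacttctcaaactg
R3, chr1:131727970-131728169, plus strand: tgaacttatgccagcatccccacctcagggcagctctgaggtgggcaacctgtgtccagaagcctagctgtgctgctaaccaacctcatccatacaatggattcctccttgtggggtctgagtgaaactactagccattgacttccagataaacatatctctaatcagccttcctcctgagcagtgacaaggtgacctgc
R4, chr11:79679998-79680197, plus strand: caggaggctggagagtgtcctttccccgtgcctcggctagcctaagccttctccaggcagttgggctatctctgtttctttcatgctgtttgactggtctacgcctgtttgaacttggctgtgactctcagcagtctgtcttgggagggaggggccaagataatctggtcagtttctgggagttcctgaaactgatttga
R5, chr7:123357346-123357545, plus strand: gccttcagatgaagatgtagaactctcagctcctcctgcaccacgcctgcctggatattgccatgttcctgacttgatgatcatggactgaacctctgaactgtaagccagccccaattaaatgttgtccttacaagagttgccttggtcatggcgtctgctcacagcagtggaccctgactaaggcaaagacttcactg

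The windows of R2 and R5 were 84% and 84.5% soft-masked repeat sequence, and the others between 0 and 20%. R31 held the 1 GATA match of the 8 windows, and the 4 windows without another mark held no match to any of the 10 motifs.

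The DP peaks that define these regions were of middling strength. SEACR gives each peak a total signal, the coverage summed over its bases, whose scale differs between libraries, so each total was also ranked within its own list. The median DP-only region was at the 35.9th, 53.3rd and 53.6th percentile of DP replicates 1, 2 and 3, against 58.3, 80.6 and 80 for other DP regions. In total signal the medians were 7334, 22440 and 9666 for DP-only regions and 8559, 36824 and 14622 for other DP regions. All 3 replicates placed the DP-only regions lower. In 46 members (19.7%) the peak was in the upper 50% of every DP list, against 1532 other DP regions (50.5%). These values come from the libraries that chose the regions and are a description. Across the 234 members, Spearman correlations of total signal between pairs of DP libraries were 0.38, 0.31 and 0.40, all members sharing the same 3 libraries.

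**Figure D2:**
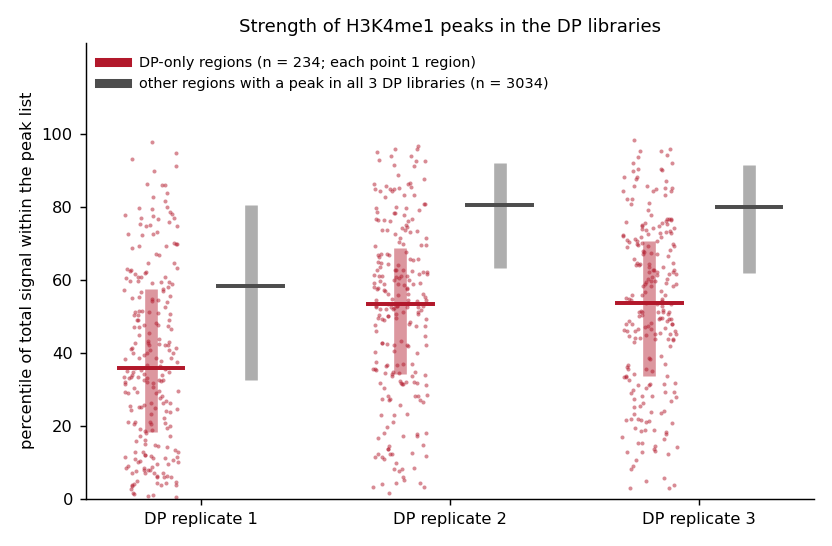
Percentile of the total signal of the H3K4me1 peak within its own list (y axis) in each DP replicate (x axis); red points are the 234 DP-only regions, bars span the quartiles and lines mark medians, with the 3034 other DP regions in grey. DP-only medians are 35.9, 53.3 and 53.6 and those of other DP regions 58.3, 80.6 and 80.

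The strongest member, R1 (chr15:62218735-62224898), lay in an intron of Pvt1, a non-coding RNA gene beside the proto-oncogene Myc, whose start site was the nearest coding one at 238 kb. Its total signal was 19585, 56433 and 25248 in DP replicates 1, 2 and 3, in the 97.8th, 92.5th and 95.3rd percentile. It was high in all 3 lists and had no peak of any other mark in 27 libraries. R3 (chr1:131722205-131729457), intergenic and 16 kb from Slc26a9, an anion transporter gene, had totals of 14789, 43771 and 17553 and no other mark either. R7 (chr7:80416466-80425643) lay 14.1 kb from Furin, which encodes the convertase that matures Nodal and related ligands, with totals of 10336, 57843 and 13565 and no other mark. R8 (chr16:10671011-10677389), in an intron of Clec16a, was 111 kb from Socs1, the feedback inhibitor of JAK-STAT signalling. Its totals were 10187, 40716 and 21186, and it had H3K27ac in 1 Oct4+, 2 DP and 1 Pdgfra+ library. R10 (chr6:84471595-84474655) and R46 were both nearest to Cyp26b1, which encodes an enzyme that degrades retinoic acid, at 121 and 171 kb. The rest of the 12 strongest included R2 near Erv3, R4 in an intron of Rab11fip4, R5 in an intron of Arhgap17 and R9 near Ccr4. R11 in an intron of Rassf8, R12 near Ttf2 and R6 completed them. R6 was nearest to 4930578I06Rik, at 20.9 kb, and its strongest interval was 23.2 kb from Sox7. Of the 12, 7 had no peak of any other mark in any library (R1, R3, R4, R6, R7, R11 and R12).

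Regions just inside and just outside the rule show what separates them. The 3 members whose weakest DP peak ranked lowest, nearest to Sult6b2, Alk and Ccser2, had totals of 6188, 6183 and 6172 in DP replicate 1, where the lowest peak of the list had 6164. Nearest outside were regions at Trappc6a and Pla2g15, each with a single peak in Pdgfra+ replicate 3 with totals of 8008 and 8039, and at Phyh, with a peak in Oct4+ replicate 1 of 5353. Those peaks sat at the bottom of their lists, where the lowest totals were 8007 and 5344. Of 794 regions with a peak in all 3 DP libraries and exactly 1 of the other 6, the other library was Pdgfra+ replicate 3 in 685 and Oct4+ replicate 2 in 88. The lists of Pdgfra+ replicates 1 and 2 held 1723 and 1074 peaks against 10620 in replicate 3 and 4371 to 11874 in DP, so the absence from Pdgfra+ rested mainly on replicate 3. Without Pdgfra+ replicate 3 the rule kept 920 regions, and without DP replicate 1 it kept 1147. When each list was cut to its 1074 strongest peaks, 43 regions passed, and 1 of the 234 overlapped one of them.

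The gap to the nearest peak of the 6 Oct4+ and Pdgfra+ libraries was measured for members only, so it has no comparison with other regions. The nearest H3K4me1 peak of those 6 libraries was at a median of 11.9 kb from the edge of a DP-only region (quartiles 3.93 and 40.6 kb). It was under 1 kb away for 7 members and under 10 kb for 108, and over 100 kb for 26. R104, in an intron of Dppa4, was 316185 bp from any such peak, and R191 near Spry2 was 477 bp from one.

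DP-only regions were narrower and more distal than other DP regions. Their median width was 3857 bp, against 6438 bp for other DP regions, 3911 bp for Oct4-only regions and 3374 bp for all regions. A merged region grows with each peak that joins it, so width depends in part on the rule. The median distance from the strongest interval to the nearest coding start site was 29.4 kb (quartiles 11.3 and 71.3 kb), against 20.2 kb for other DP, 29.8 kb for Oct4-only and 19.3 kb for all regions. The strongest interval was in a promoter in 15 members (6.41%), an exon in 13 (5.56%), an intron in 113 (48.3%) and intergenic sequence in 93 (39.7%). In other DP regions, 10.8% were in promoters and 29.4% intergenic. Members were GC-poorer, with a median of 46.5% GC against 48.1% in other DP and 48.6% in Oct4-only regions, and had 10.3 CpG per kb against 12.8 and 12.3. Soft-masked repeats made up a median of 20.2%, near the 20.1% of other DP regions.

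**Figure D3:**
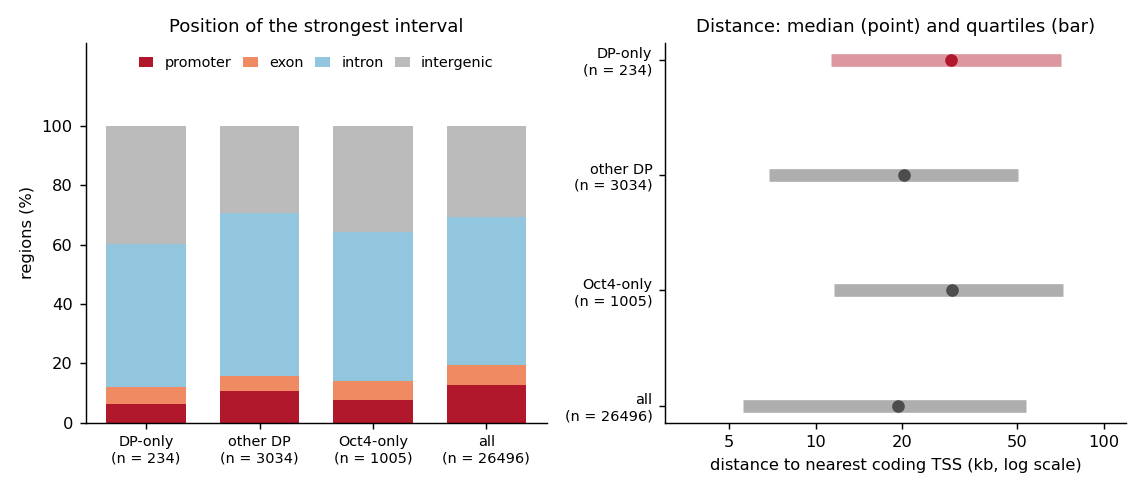
Left, share of regions (y axis, percent) with the strongest interval in a promoter, exon, intron or intergenic sequence; right, distance of that interval to the nearest coding start site (x axis, kb, log scale), points medians and bars quartiles. DP-only regions are in promoters in 6.41% against 10.8% of other DP regions, with a median distance of 29.4 against 20.2 kb.

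Members were spread over the autosomes. Chromosome 6 held 28 (12%), near its 12.3% of other DP regions and above its 8.21% of all regions. Chromosome 3 held 20 (8.55% against 4.45% of other DP regions). Chromosome 19 held 1 (0.427% against 3.16%). Chromosome X held 0, and it had few regions in any set (0.0659% of other DP and 0.581% of all regions). Their nearest coding genes were 222 distinct genes, 12 of which were nearest to 2 members: Ccser1, Cyp26b1, Gm21915, Lpcat1, Naaladl2, Prickle2, Sept9, Slc25a18, Slc6a6, Snx27, Spry2 and Tnfaip8. Prickle2, a planar cell polarity gene, had R19 and R137 at 14.7 and 36.4 kb, and R137 is a member with a compressed OCT4-SOX17 site. Spry2, a feedback inhibitor of FGF and ERK signalling, had R191 and R92 at 26.4 and 292 kb.

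H3K27ac was scarce at the DP-only regions. In Oct4+ replicates 1, 2 and 3, 29.9%, 45.3% and 5.13% of the 234 had an H3K27ac peak, in DP 22.2%, 2.56% and 11.5%, and in Pdgfra+ 3.42%, 4.7% and 5.13%. For other DP regions the same libraries gave 59.5%, 74.2% and 27.5% in Oct4+, 63.8%, 25.1% and 62.2% in DP, and 36.5%, 40.1% and 35.6% in Pdgfra+. In every library the DP-only regions were lower, with a mean difference of -32.7 percentage points over 9 libraries. An exact two-sided sign-flip permutation test gave p = 0.00391, the smallest that 9 libraries allow (adjusted over 9 tests, 0.0352; lower in 9 of 9). The rule had kept H3K4me1 peaks of the 6 Oct4+ and Pdgfra+ libraries out of the DP-only regions and required one in the other DP regions, so for these libraries the comparison is not independent of the choice of regions, and the difference is given as a description. In the 3 DP libraries, where both sets had an H3K4me1 peak, the differences were -41.6, -22.6 and -50.6 points, lower in 3 of 3, and 3 libraries allow no sign-flip p below 0.25. In 1 kb windows of equal width around the strongest interval, the mean difference was -26.6 points. Among regions within the middle 50% of member widths it was -17.6 points, with means of 12.9% and 30.6%. Among regions in the upper 50% of every DP list it was -39.4 points, 15.9% against 55.3%. The last 2 of these settings were chosen after the data were seen, and the DP-only regions were lower in 9 of 9 libraries in all 3. With any 1 library left out the mean difference was between -34 and -30.5 points, and the adjusted p by exact permutation was 0.0703 in 8 of the 9 omissions and 0.0352 without DP replicate 2.

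By population, the mean share of DP-only regions with H3K27ac was 26.8% ± 20.3 (SD, n = 3) in Oct4+, 12.1% ± 9.84 in DP and 4.42% ± 0.89 in Pdgfra+. The populations did not differ beyond the spread between replicates (exact permutation of the F statistic over all assignments of libraries to populations, p = 0.118, adjusted 0.354), and for pairs 3 against 3 libraries cannot give a p below 0.1. The Oct4+ H3K27ac lists held 38619, 65131 and 8574 peaks and the DP lists 10957, 3079 and 12244. In Oct4+ the order of the shares followed the order of these numbers, while in DP the longest list, that of replicate 3, had 11.5% against 22.2% in replicate 1. With equal numbers of peaks per library, the DP minus Oct4+ difference was 0.57 points in place of -14.7. The difference from other DP regions was -27 ± 3.97 points in Oct4+, -38.3 ± 14.3 in DP and -33 ± 2.49 in Pdgfra+ (SD, n = 3; exact permutation, p = 0.304, adjusted 0.546). Without DP replicate 2, whose list was the shortest, the same test gave an adjusted p = 0.0321 by exact permutation, with a DP minus Oct4+ difference of -19.2 points. No other omission of the 9 passed, and the adjusted p by exact permutation reached 0.839. The dependence on the choice of regions holds for this difference too.

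**Figure D4:**
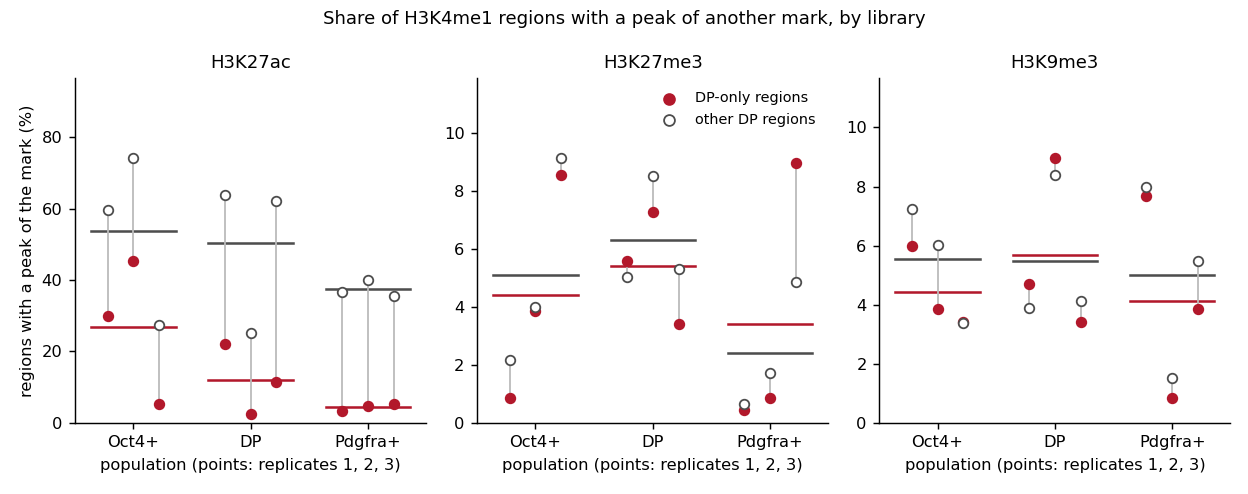
Share of regions with a peak of H3K27ac, H3K27me3 or H3K9me3 (y axis, percent; scales differ between panels) in each library of each population (x axis); red points are DP-only regions, open points other DP regions, grey lines join the values of a library and horizontal lines are means of 3 libraries. For H3K27ac all 9 red points lie under the open ones; for the other marks they lie close together or on both sides.

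Counting a mark as present in a population when at least 2 of 3 libraries had a peak, H3K27ac was at 53 DP-only regions in Oct4+ (22.6%), 20 in DP (8.55%) and 7 in Pdgfra+ (2.99%). Over all 26496 regions these shares were 39.8%, 22.2% and 13.9%, and over other DP regions 55.6%, 54.6% and 36.2%. By combination, 172 members (73.5%) had H3K27ac in no population, against 52.5% of all regions. It was in Oct4+ alone at 42 members (17.9%; 24.6% of all regions and 18.6% of other DP regions), in Oct4+ and DP at 4 (1.71%; 5.12% of all regions) and in all 3 at 7 (2.99%; 9.86% of all regions). The 9 members with it in DP alone (3.85%) were close to the share of all regions, 3.98%. In DP and Pdgfra+ without Oct4+ it was at 0 members, against 3.19% of all regions and 10% of other DP regions (304).

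The acetylated members are few enough to name the strongest. In DP these were R2, R8, R18 in an intron of Ppfibp2, and R31 (chr15:75697937-75710407), an intergenic region 4.35 kb from Rhpn1. R31 had H3K27ac in 3 of 3 DP libraries and 0 of 6 others, and H3K27me3 in 2 Oct4+ libraries. In Oct4+ the strongest were R2, R15 at Strn4 and Prkd2, R28 in an intron of Gfpt1 and R29 near Noto, with H3K27ac in 2, 3, 3 and 2 Oct4+ libraries. R29 had H3K27me3 in 3 DP libraries, 2 Oct4+ and 1 Pdgfra+. In Pdgfra+ they were R43 in an intron of Mbd2, R53 near Nrcam, R77 near Tmem121 and R79 near Impa2, each acetylated in all 3 populations. R77 stood apart, with a peak of another mark in 18 of 27 libraries, including H3K9me3 in all 9, and R79 had one in 12.

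In either silencing mark, the difference from other DP regions did not pass the test over whole regions and full lists. H3K27me3 peaks were at 0.855%, 3.85% and 8.55% of DP-only regions in Oct4+ replicates 1, 2 and 3, at 5.56%, 7.26% and 3.42% in DP, and at 0.427%, 0.855% and 8.97% in Pdgfra+. The mean difference from other DP regions was -0.18 points (exact sign-flip permutation test, p = 0.809, adjusted 0.839; lower in 7 of 9 libraries). Pdgfra+ replicate 3 was the exception in size, at 8.97% against 4.85%. H3K9me3 peaks were at 5.98%, 3.85% and 3.42% in Oct4+, 4.7%, 8.97% and 3.42% in DP, and 7.69%, 0.855% and 3.85% in Pdgfra+. The mean difference was -0.591 points (exact sign-flip permutation test, p = 0.117, adjusted 0.354; lower in 6 of 9 libraries). The populations did not differ beyond their spread in either mark (exact permutation, adjusted p = 0.839 for both shares, and 0.648 and 0.49 for the differences from other DP regions). The sign of both mean differences depended on the setting, and lower values passed for H3K27me3 with equal numbers of peaks (-0.717 points, adjusted p = 0.0429 by exact permutation) and with members chosen without Pdgfra+ replicate 3 (-2.19, adjusted p = 0.0176), and for H3K9me3 among regions in the upper 50% of every DP list (-4.07, adjusted p = 0.0352). The dependence on the choice of regions given for H3K27ac holds for these tests too.

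In at least 2 of 3 libraries, H3K27me3 was at 10 DP-only regions in Oct4+ (4.27%; 4.67% of all regions), 11 in DP (4.7%; 9.4%) and 3 in Pdgfra+ (1.28%; 3.56%). H3K9me3 was at 9 in Oct4+ (3.85%; 4.27%), 10 in DP (4.27%; 3.49%) and 7 in Pdgfra+ (2.99%; 3.33%). The strongest with H3K27me3 in DP were R29, R36 in an intron of Cdh23, R54 in an intron of 9130204K15Rik, and R105 in an intron of Tmem9. The strongest with H3K9me3 in DP were R40, R49, R52 in an intron of Fbln5, and R77. H3K27ac and H3K27me3 were together in DP at 0 members, against 72 other DP regions (2.37%) and 1.07% of all regions, a share within the 1.28% that a count of 0 allows.

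Within DP cells, 203 members (86.8%) thus carried H3K4me1 with neither H3K27ac nor H3K27me3 in 2 libraries, 20 carried it with H3K27ac and 11 with H3K27me3. Of other DP regions, 41.8% were in the same unaccompanied state. Neither H3K27ac nor H3K27me3 was in 2 DP libraries at 69.5% of all regions, but that share includes regions without H3K4me1 in DP. Extended to every library, 73 members (31.2%) had no peak of another mark in any of 27, against 6.49% of other DP, 7.46% of Oct4-only and 17.7% of all regions. The 153 members with no other mark in 2 libraries of any population had a median distance to a coding start site of 31.6 kb, the 20 with H3K27ac in DP 21.4 kb, and the 11 with H3K27me3 in DP 52.6 kb.

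**Figure D5:**
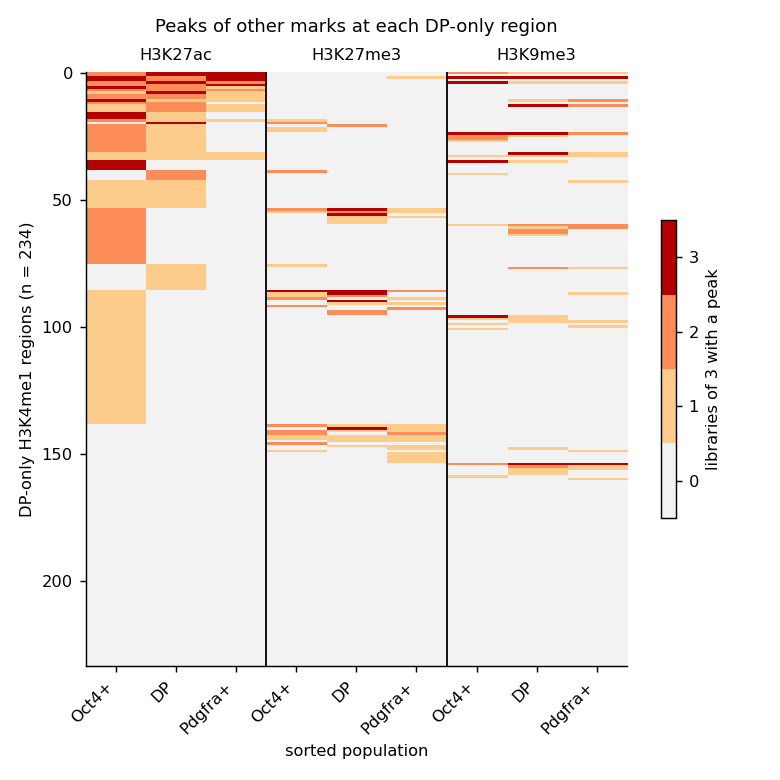
Number of libraries, of 3, with a peak of each of 3 marks in each population (columns) at the 234 DP-only regions (rows, sorted by H3K27ac). H3K27ac fills the top left, most of it in Oct4+ columns, and 73 rows are empty in all 9 columns.

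Among the developmental gene lists, few genes had a member nearby. Distances to listed genes here and below run from the edge of a region, and those to nearest genes above from its strongest interval. Within 20 kb of a start site, 145 of 21924 coding genes had one (0.661%), as did 2 of 25 pluripotency genes (Dppa3 and Dppa4), 2 of 25 extra-embryonic endoderm genes (Sox17 and Sox7), 1 of 25 Nodal and BMP genes (Acvr1b), 1 of 24 mesendoderm genes (Cdx1) and 1 of 25 feeder fibroblast genes (Pdgfrb). The trophectoderm, LIF and JAK-STAT, FGF and ERK, and Wnt lists had 0. Other DP regions, a far larger set, lay within 20 kb of 11 of the pluripotency and 14 of the endoderm genes. They lay within 20 kb of 2399 of all 21924 coding genes (10.9%). More genes thus had an other DP region than a member nearby, both at large and in the pluripotency and endoderm lists. In the feeder fibroblast list it was 0 genes against 1. Within 100 kb, where 616 coding genes (2.81%) had a member, the lists added Nanog, Gdf3 and Tcl1 among pluripotency genes, Krt19 among endoderm genes, and Spry2, Fzd7, Bmp7 and Snai1 among the others.

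Sox17, which encodes the endoderm factor that pairs with OCT4, had a member over its own promoter. R150 (chr1:4495705-4499592) covered the start site, with its strongest interval 0.759 kb away. Its H3K4me1 totals were 7260, 15965 and 8947 in DP replicates 1, 2 and 3, in the 33.9th, 18.1st and 46.3rd percentile, and so in the lower part of each list. R150 had H3K27ac in 2 of 3 DP libraries and in 0 of 6 others, and H3K27me3 in 2 of 3 Oct4+ libraries and in 0 of 6 others. It was 1 of the 9 members acetylated in DP alone, a combination at 3.85% of members and 3.98% of all regions. A second member, R145, lay 71.2 kb from Sox17 with an H3K27ac peak in 1 DP library. R6 (chr14:63963383-63971408) was 19.7 kb from the related factor gene Sox7, with totals of 12250, 43613 and 13440 and no other mark.

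The members near pluripotency genes looked different from each other. R49 (chr6:122642258-122645728), 15.8 kb from Dppa3 and 61.8 kb from Nanog, in the cluster of pluripotency genes on chromosome 6, had totals of 9473, 23782 and 9219. It carried H3K9me3 in 2 Oct4+, 3 DP and 3 Pdgfra+ libraries, no H3K27ac or H3K27me3, and was 53.1% soft-masked repeats. R104 (chr16:48286736-48290065) was in an intron of Dppa4, a chromatin factor of pluripotent cells, 3 kb from its start site, with totals of 7902, 17796 and 8595. No peak of another mark overlapped it in 27 libraries. R17, 48.2 kb from the AKT coactivator gene Tcl1, had totals of 8920, 35823 and 22959 and H3K27ac in 1 Oct4+ library.

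R216 (chr15:101168992-101171772) was 2.29 kb from Acvr1b, which encodes a type I receptor for activin and Nodal, with totals of 6284, 18261 and 9703 and no other mark. R121, in an intron of the neighbouring receptor gene Acvrl1, was 31.6 kb from Acvr1b and had none either. R47 overlapped an intron of Pdgfrb, a receptor gene expressed in fibroblasts, with totals of 8326, 24197 and 9260, an H3K27me3 peak in 1 DP and 1 Pdgfra+ library and no H3K27ac peak in 9 libraries. It was also 9.66 kb from Cdx1. It was the 1 member within 20 kb of a feeder fibroblast gene, and of that list 0 genes had an other DP region within 20 kb.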

How the data were processed

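CUT&Tag peak lists of 36 libraries were used, 9 for each of 4 histone marks in 3 sorted populations. Per the labels' processing notes, reads were handled with bcl2fastq 2.19.1, Bowtie2, SAMtools 1.12, deepTools, SEACR and bedtools 2.26.0 on mm10. The deposited SEACR files give for each peak a total signal (coverage summed over the peak), a maximum signal and the strongest interval. They give no reads, so the depth is unknown, and SEACR's normalization setting is not given in the sources used here. Peaks were called per library. The 3 IgG samples were not analysed here.

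Overlap of at least 1 bp was used for merging and presence (Python 3.11.15, NumPy 2.4.6, pandas 2.3.3). Genes came from GENCODE vM21 and sequence from GRCm38.p6 (pysam 0.24.0). Promoters ran from 1000 bp upstream to 100 bp downstream of a start site. Every transcript start was used to place regions, and only the gene start in the check of marker genes. Scripts were tested on simulated data. Libraries, not regions, were the unit of every test, with exact permutation and Benjamini-Hochberg adjustment over 9 tests. Alternatives were other overlaps, windows, peak thresholds, peak numbers and omitted libraries.

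The regions named were the 12 of highest rank, the 4 of highest rank with each mark in DP and with H3K27ac in Oct4+ or Pdgfra+, those within 20 kb of a listed gene, genes nearest to 2 members and the 3 regions on each side of the rule. Other named regions were chosen after their values were seen. The members and lists were chosen with earlier results of these data known.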

Additional observations from a re-analysis of the deposited data

How the results depend on the processing

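The number of DP-only regions depended on the processing. From 234, it was 218 when peaks were joined across gaps of up to 1 kb (214 of the 234 found again), 140 when only the upper 50% of each list by total signal was kept (45 found again), 43 with equal numbers of peaks (1), 17 with a common threshold of total signal (3), 1282 with at least 2 of 3 DP libraries and 1028 with up to 1 of 6 others. Leaving out 1 H3K4me1 library gave 234 to 1147 regions. The lower share of H3K27ac kept its direction and adjusted p = 0.0352 or less by exact permutation in 5 other choices of peaks and regions and in 3 more chosen after the data were seen (-39.4 to -17.6 points). Leaving out 1 library gave -34 to -30.5 points, with an adjusted p of 0.0703 by exact permutation in 8 of 9 omissions and of 0.0352 without DP replicate 2. The unadjusted p was the smallest possible in every omission, so these adjusted values do not show a weaker difference. In all of these choices the rule still entered the comparison for Oct4+ and Pdgfra+ libraries. The repeated p-values are therefore a description and not independent support.

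For H3K27ac by population, with equal numbers of peaks the DP minus Oct4+ share was 0.57 points and the difference from other DP regions differed by -9.69 points between DP and Oct4+ (exact permutation, adjusted p = 0.0429). Omissions gave -25.5 to -5.41 and -19.2 to -5.13 points. For H3K27me3 and H3K9me3, where no result passed over whole regions and full lists, signs turned and some alternatives passed. With a peak over at least 50% of the shorter interval the values were 0.0542 (H3K27me3, DP minus Oct4+ in the difference from other DP regions) and 0.0315 (H3K9me3, mean difference). In 1 kb windows the mean differences were 0.0473 for H3K27me3 and 0.792 for H3K9me3. With equal numbers of peaks they were -0.717 (exact permutation, adjusted p = 0.0429) and 0.0895, and the DP minus Oct4+ share of H3K27me3 was -0.285. The H3K27me3 mean difference was 0.94 outside promoters, 0.494 among regions in the upper 50% of every DP list, 0.69 among regions of middle width and -2.19 (adjusted p = 0.0176 by exact permutation) with members chosen without Pdgfra+ replicate 3. The H3K9me3 one was -4.07 (adjusted p = 0.0352 by exact permutation) in the upper 50%. Omitting 1 library gave -0.783 to 3.06, -0.881 to 0.319 and -0.719 to 0.0333 for H3K27me3 (share, difference by population, mean difference), and -0.356 to 2.42, 0.849 to 1.95 and -0.766 to -0.392 for H3K9me3. The cause of these changes was not tested.

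Replicate numbers showed no pairing of libraries shared by all 4 marks. Of 9 pairs of same-numbered libraries for each mark, 2, 0, 4 and 0 had correlated deviations above 0.1 for H3K4me1, H3K27ac, H3K27me3 and H3K9me3. For H3K27me3 the mean correlation was 0.061 in same-numbered pairs and -0.0285 in other pairs. With the replicate number as a block, no result by population passed (exact permutation, H3K27ac share -14.7 points, adjusted p = 0.75, and no adjusted p below 0.75). Permuting only within blocks leaves so few arrangements that a single result by population could not pass the adjustment. This setting therefore cannot decide whether the populations differ. Peak lists without reads limit every absence to the threshold of its list.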
